A study of Mus musculus with 6 samples.

Results

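The genes described here build and hold mitotic chromosomes: the subunits of condensin, cohesin and the SMC5/6 complex, the factors that load, release, establish, protect and cut cohesin, both type II topoisomerases, the chromosome periphery proteins Mki67 and Cdca2, the insulator protein Ctcf, the X inactivation factor Smchd1 and 3 HMGB proteins. The list held 38 genes. A gene was counted when a probe set of the array named it and no other gene, and the probe set with the highest mean over the 6 arrays stood for it. That gave 37 measured genes of 30738 genes with a probe set of their own. Hmgb1 was not counted, because its probe set also names Gm21596.

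RNA of LSK cells (lin-, Sca1+, cKit+), the bone marrow fraction of stem and multipotent progenitor cells, had been hybridized to 6 MTA-1.0 arrays. The 3 KO arrays held cells of Ash2l exon4 fl/fl, MxCre mice, and the 3 control arrays held cells of Ash2l exon4 fl/fl mice. Both groups had received 3 intraperitoneal injections on alternating days, called poly(dIdC) in the labels and pIC in the study's methods, and marrow was taken at day 10. The Mx1 promoter answers to interferon, so pIC switches Cre on throughout the hematopoietic system and in other tissues, and the controls carried no Cre. The loss of Ash2l and the presence of Cre therefore cannot be told apart in this design. Ash2l is a core subunit of the KMT2 complexes that methylate lysine 4 of histone H3. Animal ages were not given in the labels, and the design text speaks of 3 mice in each group. Values are log2 signals as deposited, and a change is the KO mean minus the control mean on that scale.

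Condensin, cohesin and SMC5/6 are rings built on pairs of SMC ATPases that entrap and fold DNA. Condensin compacts chromatin into rod-shaped mitotic chromosomes, cohesin holds sister chromatids together from S phase until anaphase and folds interphase chromatin into loops, and SMC5/6 acts in DNA repair and replication. Topoisomerase II untangles the sister DNAs. Several of these genes, such as Top2a, Mki67 and the condensin I subunits, are transcribed mainly in dividing cells, with a peak in G2 and mitosis. Others, such as Smc3, Top2b and Ctcf, are also present in cells that do not divide.

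The targeted gene was lower in every KO array. Ash2l read 9.65, 9.63 and 9.65 in the KO arrays and 10.76, 10.57 and 10.23 in the controls, each time in the order of replicates 1 to 3 as everywhere here, a change of -0.88 ± 0.15 (SE), or 1.84-fold lower (limma, adjusted p = 0.198). Where its probes lie relative to the deleted exon was not examined, so this is only a partial check of the labels. For RNA with the deleted exon, the study reports a far larger loss, on the arrays and by quantitative PCR. It also reports hardly any Ash2l protein in KO LSK cells. Array medians lay between 6.02 and 6.09. Control replicate 3 stood apart from the other controls: it correlated with them at r = 0.984 and 0.98 over all probe sets, below the 0.989 between control replicates 1 and 2, and with KO replicate 2 at 0.989. The 8 measured B cell markers had a summed linear signal of 85787 and 52046 in control replicates 1 and 2 but 2748 in control replicate 3, against 3645 to 8091 in the KO arrays. The stem cell marker Kit was measured in every array, at 12.28 to 12.40 in KO and 11.93 to 12.92 in control. Other genes of the LSK and stem cell list, with 9 measured, moved in both directions. Flt3 had a change of -1.22, with all KO arrays below all controls, and Cd34 had 0.84 with overlapping groups. These 2 had an unadjusted p under 0.05 in limma. Of the 12 measured interferon response genes, control replicate 3 was the highest control for 12, as it was for 13150 of all 30738 genes. The median deviation of the 12 from the gene mean was 0.55 in control replicate 3 and 0.48 to 0.67 in the KO arrays. It was -1.12 and -1.55 in control replicates 1 and 2. All 15 measured genes of a G2 and mitosis list were lower in KO at an unadjusted p under 0.05 (5.8% of all probe sets), with a median change of -1.31. By flow cytometry of BrdU and DNA content, the study placed most KO LSK cells in G2/M and very few in G0/G1. The part of B-lineage cells, of interferon and of the share and cycle phase of dividing cells in the results that follow was not tested. In bulk RNA, fewer cells of a type and less RNA per cell cannot be told apart.

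Chromosome structure genes were mostly lower in the Ash2l KO LSK cells. The change was below 0 for 28 and above 0 for 9 of the 37 genes, with a median of -0.58. Over all 30738 genes it was below 0 for 17515 and above 0 for 13223, with a median of -0.03. At an unadjusted p under 0.05 in limma, 20 were lower, where 5.8% of all probe sets were, and 1 (Nsmce1) was higher, where 5.09% were. Smc4, Ncapg, Cdca5, Sgo1, Mki67 and Cdca2 were lower more than 2-fold with p under 0.01 before adjustment, 6 of 37 genes against 0.393% of all probe sets. All 3 KO arrays lay below all 3 controls for 21 genes (9.15% of all probe sets) and above them for 1 gene (6.15%), and the groups overlapped for 15. After Benjamini-Hochberg adjustment over all 65956 probe sets, limma called 0 genes of the list and 0% of the array. The smallest adjusted p on the list was 0.193, of Stag1, and the smallest on the array was 0.0528.

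The size of the change depended on the controls. Without control replicate 3, 11 genes of the list were lower at an adjusted p under 0.05 (limma), against 1.39% of all probe sets, namely Smc2, Smc4, Ncapg, Stag1, Esco2, Cdca5, Sgo2a, Top2a, Mki67, Cdca2 and Hmgb2. The number lower by over 2-fold at p under 0.01 was then 13, and without any 1 of the other 5 arrays it was 1 or 2. The share of all probe sets past this fold and p was not computed for these fits. Over the whole array, 2332 probe sets had an adjusted p under 0.05 in either direction without control replicate 3, and 0 with all 6 arrays. In control replicate 3, 6 of the 8 B cell markers were below every KO array. All 3 KO arrays lay below control replicate 3 for 25 of the 37 genes, and below both other controls for 24. The share of all probe sets that meets either rule was not computed, and both rules are easier to meet than lying below all 3 controls. The median of KO mean minus control was -0.30 against control replicate 3 and -0.66 against the mean of control replicates 1 and 2.

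**Figure D1:**
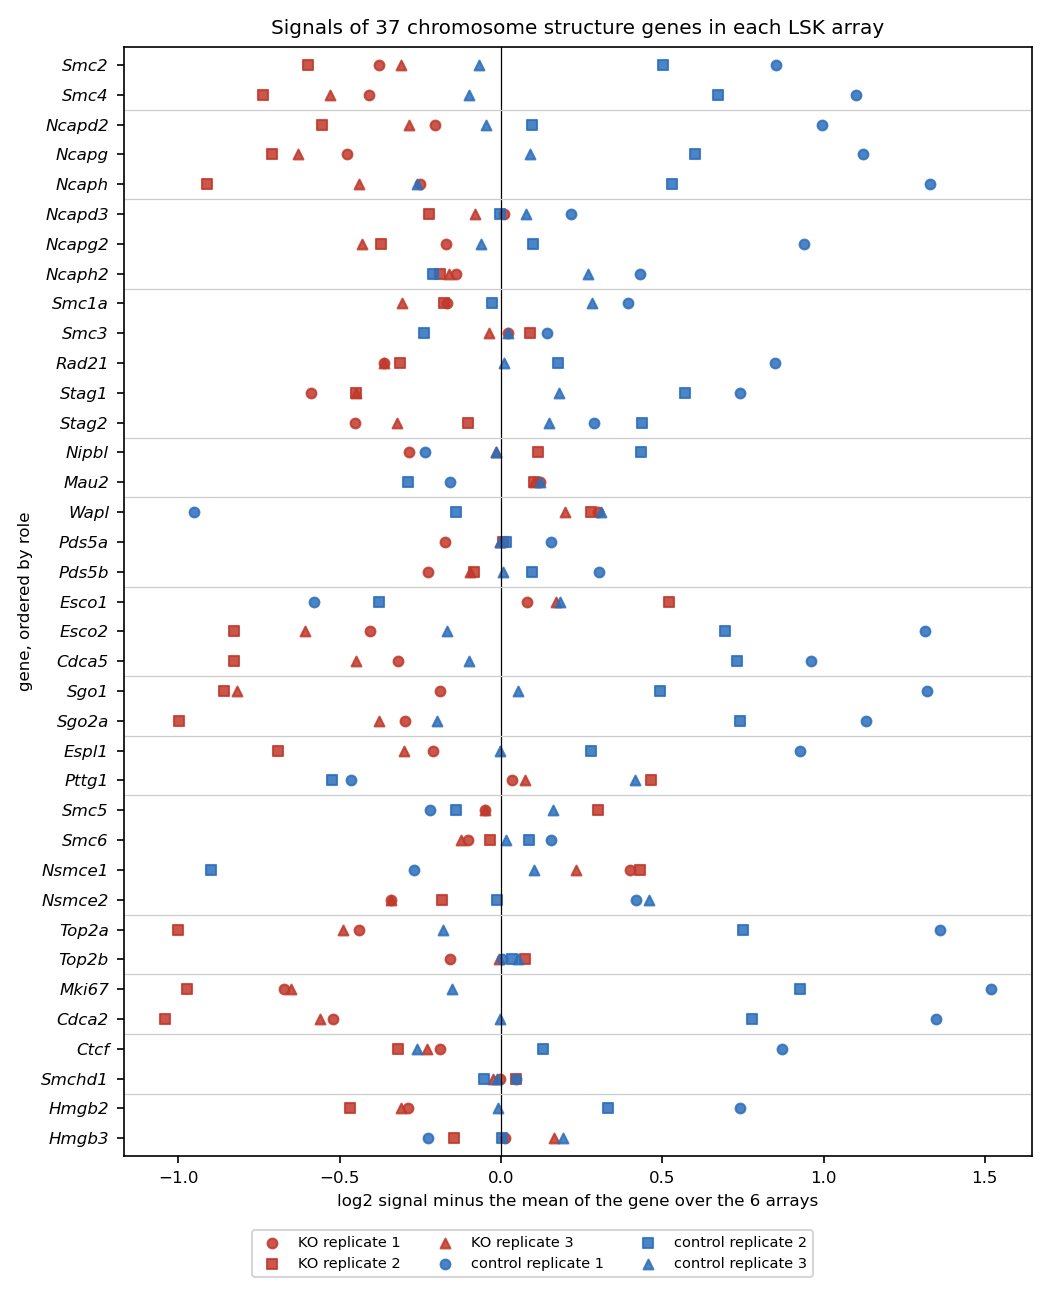
Log2 signal of each of the 37 genes in each array minus the gene's mean over the 6 arrays (x axis), with genes in rows by role (y axis), KO arrays in red and control arrays in blue. Control replicates 1 and 2 lie to the right of the KO arrays for Smc4, Ncapg, Esco2, Top2a, Mki67 and Cdca2 with control replicate 3 between, to the left of them for Esco1 and Nsmce1, and Top2b and Smchd1 stay near 0 in all arrays.

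Promoters are shown for genes that were lower and for genes with changes near 0, because genes with a G2 and mitosis peak often carry CHR elements and CCAAT boxes, which the MuvB complexes and NF-Y bind, and S phase genes often carry E2F sites. Sequences are RefSeq promoters (GRCm38.p6), from 250 bases before the annotated start to 50 bases after it, 5′ to 3′ on the gene's strand. A promoter was found for 30 of the 38 listed genes, 29 of them measured; Smc4, Rad21, Stag2, Nipbl, Esco1, Esco2, Nsmce2 and Cdca2 had no entry. Capitals mark matches to TTTGAA or TTTAAA (CHR element), CCAAT, and TTTCCCGC, TTTGGCGC or TTCCCGCC (E2F site), searched on both strands, so that TTCAAA and ATTGG are matches on the other strand. TTTAAA is its own reverse complement, and TTTCCCGC and TTCCCGCC can overlap. Top2a (chr11:99024140-99024439, - strand), Ncapg (chr5:45669675-45669974, + strand), Cdca5 (chr19:6084847-6085146, + strand), Hmgb2 (chr8:57511593-57511892, + strand) and Ncaph (chr2:127133905-127134204, - strand) were lower in KO at an unadjusted p under 0.05. Top2b (chr14:16364956-16365255, + strand) and Hmgb3 (chrX:71555667-71555966, + strand), paralogs of Top2a and Hmgb2, had changes near 0, as did the cohesin core gene Smc3 (chr19:53600146-53600445, + strand). The genes were picked with their matches known, to show promoters with and without matches in both sets.
Top2a: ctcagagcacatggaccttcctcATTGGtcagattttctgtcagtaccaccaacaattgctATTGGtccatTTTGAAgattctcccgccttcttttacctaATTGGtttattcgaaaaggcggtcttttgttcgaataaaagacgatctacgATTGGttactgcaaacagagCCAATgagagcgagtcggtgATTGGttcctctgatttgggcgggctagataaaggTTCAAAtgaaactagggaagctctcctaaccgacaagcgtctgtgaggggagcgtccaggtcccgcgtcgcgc
Ncapg: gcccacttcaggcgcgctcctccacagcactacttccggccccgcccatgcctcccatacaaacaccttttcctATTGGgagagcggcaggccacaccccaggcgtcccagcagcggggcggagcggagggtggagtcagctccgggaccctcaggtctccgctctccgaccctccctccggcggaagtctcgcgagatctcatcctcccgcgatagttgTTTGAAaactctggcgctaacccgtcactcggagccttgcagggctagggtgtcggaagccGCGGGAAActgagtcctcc
Cdca5: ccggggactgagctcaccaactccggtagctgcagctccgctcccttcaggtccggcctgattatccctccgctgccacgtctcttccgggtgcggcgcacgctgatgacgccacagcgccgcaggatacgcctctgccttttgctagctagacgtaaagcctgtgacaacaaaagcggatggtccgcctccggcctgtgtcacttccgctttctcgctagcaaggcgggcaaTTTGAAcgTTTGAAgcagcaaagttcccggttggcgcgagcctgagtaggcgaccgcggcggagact
Hmgb2: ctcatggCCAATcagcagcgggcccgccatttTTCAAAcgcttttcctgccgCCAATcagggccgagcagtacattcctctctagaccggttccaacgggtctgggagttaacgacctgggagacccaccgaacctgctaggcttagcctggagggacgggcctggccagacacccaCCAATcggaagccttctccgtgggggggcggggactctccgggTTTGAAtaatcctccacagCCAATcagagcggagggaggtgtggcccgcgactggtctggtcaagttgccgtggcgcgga
Ncaph: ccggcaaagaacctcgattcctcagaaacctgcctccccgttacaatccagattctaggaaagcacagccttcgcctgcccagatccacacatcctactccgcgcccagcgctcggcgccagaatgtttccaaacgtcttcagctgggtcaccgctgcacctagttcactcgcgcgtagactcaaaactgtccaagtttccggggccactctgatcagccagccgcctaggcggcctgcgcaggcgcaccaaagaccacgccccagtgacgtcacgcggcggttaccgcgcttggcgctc
Top2b: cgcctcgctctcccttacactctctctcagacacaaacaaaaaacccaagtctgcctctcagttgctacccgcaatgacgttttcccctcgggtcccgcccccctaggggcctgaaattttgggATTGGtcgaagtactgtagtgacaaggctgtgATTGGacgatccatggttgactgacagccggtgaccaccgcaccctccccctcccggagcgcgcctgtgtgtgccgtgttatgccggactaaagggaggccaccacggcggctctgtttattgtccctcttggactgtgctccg
Hmgb3: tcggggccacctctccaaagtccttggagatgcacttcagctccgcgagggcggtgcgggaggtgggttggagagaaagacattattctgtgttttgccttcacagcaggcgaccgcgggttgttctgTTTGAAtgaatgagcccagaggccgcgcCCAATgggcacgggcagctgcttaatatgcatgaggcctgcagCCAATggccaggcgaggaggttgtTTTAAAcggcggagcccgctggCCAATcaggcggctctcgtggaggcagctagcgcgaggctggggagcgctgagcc
Smc3: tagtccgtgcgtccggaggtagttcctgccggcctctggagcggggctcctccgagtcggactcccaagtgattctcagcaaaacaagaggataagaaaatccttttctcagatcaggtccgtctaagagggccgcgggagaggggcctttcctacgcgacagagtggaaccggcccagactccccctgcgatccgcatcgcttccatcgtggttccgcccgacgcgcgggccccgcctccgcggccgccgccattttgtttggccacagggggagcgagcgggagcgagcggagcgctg

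In the Top2a promoter, 6 CCAAT boxes began at positions -227, -189, -149, -98, -78 and -58 and 2 CHR elements at -179 and -23, counted from the first transcribed base as 1. Hmgb2 had 4 CCAAT boxes, at -243, -198, -73 and -11, and 2 CHR elements, at -218 and -30. Ncapg had 1 match of each kind, with the CHR element at -30, the CCAAT box at -176 and the E2F site at 32, and Cdca5 had 2 CHR elements at -17 and -9. Ncaph, also lower, held none of the letters searched. Top2b held 2 CCAAT boxes, at -126 and -94, and Smc3 held none of the letters searched. Hmgb3, with a change of 0.02, held CHR elements at -122 and -27 and CCAAT boxes at -94, -51 and -5, so that such matches stood in promoters of lower genes and of genes with changes near 0.

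Over the list, a CHR element was present in the promoters of 9 of the 14 genes lower at an unadjusted p under 0.05 and of 7 of the 15 others, and 27.6% of all 32851 RefSeq mouse promoters held one. A CCAAT box was present for 11 of 14 and 5 of 15 genes, against 37.4% of all promoters, and an E2F site for 5 of 14 and 2 of 15, against 3.21%. Within 50 bases of the start the counts were 7 of 14 and 3 of 15 for the CHR element (8.28% of all promoters), 6 and 2 for the CCAAT box (13.6%) and 5 and 0 for the E2F site (1.09%). Genes with several promoters counted once, with a match in any of them. The E2F sites near the start were those of Ncapd2, Ncapg, Ncapg2, Smc1a and Stag1. A match describes letters only and was not tested as a binding site.

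**Figure D2:**
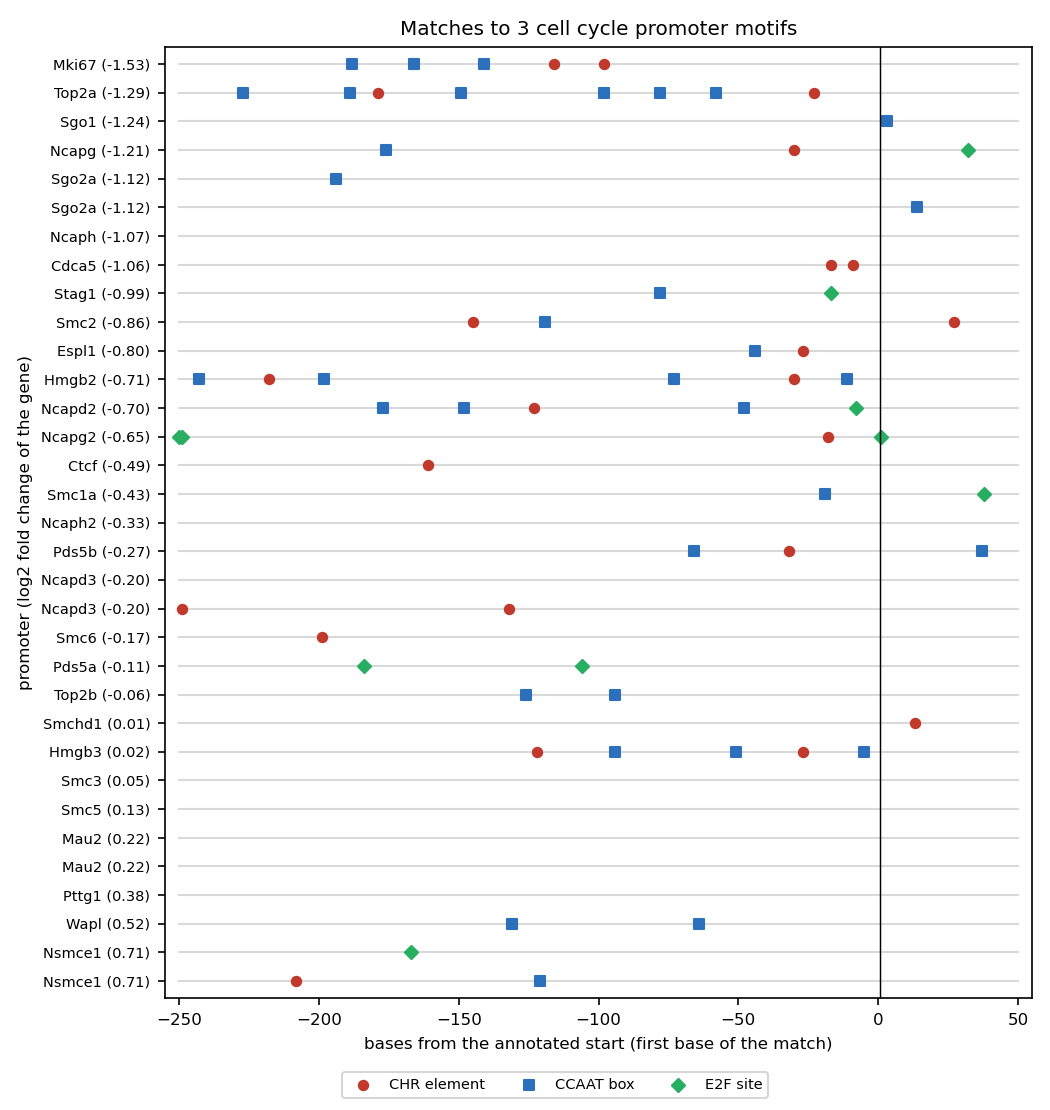
First base of each match to the CHR element (red), the CCAAT box (blue) and the E2F site (green) in bases from the annotated start (x axis), for 33 promoters of 29 measured genes ordered by the gene's log2 fold change, KO minus control, in parentheses (y axis). Top2a has 8 matches and Hmgb3, with a change of 0.02, has 5, and no match stands in the rows of Ncaph, Ncaph2, Smc3, Smc5, Mau2, Pttg1 and 1 of the Ncapd3 promoters.

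All 8 condensin subunits had a change below 0, with a median of -0.78. Of the 8, 6 were lower at an unadjusted p under 0.05 (5.8% of all probe sets), and 5 had all KO arrays below all controls (9.15%). The 6 became 3 without KO replicate 2, KO replicate 3 or control replicate 1, and 4 without KO replicate 1 or with quantile normalization, and none of the 8 passed adjustment. Smc2 and Smc4, the ATPase pair shared by condensin I and condensin II, were both lower. Smc4 read 13.56, 13.23 and 13.44 in KO and 15.07, 14.64 and 13.87 in control, a change of -1.12 ± 0.29 (2.17-fold, limma adjusted p = 0.291). Smc2 read 11.98, 11.76 and 12.05 in KO and 13.21, 12.86 and 12.29 in control, a change of -0.86 ± 0.24 (adjusted p = 0.304). In both genes every KO array was below every control, and control replicate 3 was the lowest control.

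Condensin I, which gains access to chromosomes after the nuclear envelope breaks down, showed the larger changes among the non-SMC subunits. Ncapg, a HEAT repeat subunit, read 10.43, 10.20 and 10.28 in KO and 12.03, 11.51 and 11.00 in control, a change of -1.21 ± 0.25 (2.31-fold, limma adjusted p = 0.237). It kept an unadjusted p under 0.05 when any 1 array was left out. Ncaph, the kleisin that closes the ring, read 10.22, 9.56 and 10.03 in KO and 11.80, 11.00 and 10.21 in control, a change of -1.07 ± 0.39 (adjusted p = 0.408). The groups overlapped, with KO replicate 1 just above control replicate 3, and without control replicate 1 the change was -0.67. It lost its unadjusted p under 0.05 in 4 of the 6 fits with 1 array left out. Ncapd2, the other HEAT repeat subunit, read 12.20, 11.85 and 12.12 in KO and 13.40, 12.50 and 12.36 in control, a change of -0.70 ± 0.28 (adjusted p = 0.438). It was -0.37 without control replicate 1 and kept p under 0.05 only when control replicate 2 or 3 was the array left out.

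Condensin II, which sits in the nucleus throughout the cell cycle, had smaller changes. Ncapg2 read 10.73, 10.53 and 10.47 in KO and 11.84, 11.00 and 10.84 in control, a change of -0.65 ± 0.26 (limma adjusted p = 0.44) that was -0.34 without control replicate 1 and lost its unadjusted p under 0.05 in 4 of the 6 fits with 1 array left out. Ncaph2, its kleisin, read 9.0, 8.95 and 8.98 in KO and 9.57, 8.93 and 9.41 in control, a change of -0.33 ± 0.18. Ncapd3 read 11.19, 10.96 and 11.10 in KO and 11.40, 11.18 and 11.26 in control, a change of -0.20 ± 0.12. The groups overlapped for Ncaph2 and Ncapd3, and neither had an unadjusted p under 0.05. The median change was -1.07 for the 3 condensin I subunits and -0.33 for the 3 condensin II subunits. Against control replicate 3 alone, KO mean minus control was -0.70 for Ncapg, -0.27 for Ncaph and -0.30 for Ncapd2. It was -0.26 for Ncapg2, -0.43 for Ncaph2 and -0.18 for Ncapd3, so the order of the 2 kleisins turned. The change of Ncapg minus that of Ncapg2 was -0.56, and Ncapd2 minus Ncapd3 was -0.50, with no overlap of the within-array differences between groups. For Ncapd2 minus Ncapd3, control replicate 3 was at 1.10, just above KO replicate 3 at 1.02. The change of Ncaph minus that of Ncaph2 was -0.74 with overlap (exact two-sided permutation test, p = 0.3, 0.33 after adjustment over the 10 pairs of genes compared). With 3 arrays a group the smallest p of that test is 0.1, or 0.12 after adjustment here, which both other pairs had, so no pair could pass a threshold of 0.05.

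Cohesin had a smaller median change, and its subunits were split. Over the 10 core, loader and release genes the median change was -0.20. Of the 10, 4 were lower at an unadjusted p under 0.05 (5.8% of all probe sets), all of them in the core. The core is a ring of Smc1a, Smc3 and the kleisin Rad21, which separase cuts at anaphase, with Stag1 or Stag2 bound to the kleisin. Stag1 read 10.12, 10.26 and 10.26 in KO and 11.45, 11.28 and 10.89 in control, a change of -0.99 ± 0.16 (1.99-fold, limma adjusted p = 0.193). It had the smallest p of the list and stayed under an unadjusted p of 0.05 when any 1 array was left out. Stag2, the more abundant paralog in most somatic cells, read 11.31, 11.66 and 11.44 in KO and 12.05, 12.20 and 11.91 in control, a change of -0.58 ± 0.14 (adjusted p = 0.266). The change of Stag1 minus that of Stag2 was -0.41, with no overlap of the within-array differences (exact two-sided permutation test, p = 0.1, the smallest possible). Within arrays, Stag1 minus Stag2 was -1.19, -1.40 and -1.18 in KO and -0.60, -0.92 and -1.02 in control.

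Rad21 read 13.39, 13.44 and 13.39 in KO and 14.60, 13.93 and 13.76 in control, a change of -0.69 ± 0.22 (limma adjusted p = 0.352), or -0.44 without control replicate 1. Smc1a read 13.94, 13.93 and 13.80 in KO and 14.50, 14.08 and 14.39 in control, a change of -0.43 ± 0.14 (adjusted p = 0.357). Every KO array was below every control for both genes. For Smc1a the unadjusted p was over 0.05 without KO replicate 3 or control replicate 1. Smc3, the partner of Smc1a in the ring, read 14.55, 14.62 and 14.49 in KO and 14.67, 14.29 and 14.55 in control, a change of 0.05 ± 0.13 whose sign turned with quantile normalization or without control replicate 2. The change of Smc2, in condensin, minus that of Smc3 was -0.91, again with no overlap between groups (exact p = 0.1). Within arrays, Smc2 minus Smc3 was -2.57, -2.86 and -2.44 in KO and -1.46, -1.43 and -2.26 in control.

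No loader or release gene had an unadjusted p under 0.05, and the groups overlapped for all but Pds5b. Nipbl and Mau2 form the loader, and their changes were -0.12 ± 0.20 and 0.22 ± 0.13. Pds5a and Pds5b, which regulate both the release and the acetylation of cohesin, had changes of -0.11 ± 0.11 and -0.27 ± 0.12, and for Pds5b all KO arrays (11.62 to 11.76) lay below all controls (11.85 to 12.15). Wapl, which opens the ring, read 12.24, 12.22 and 12.14 in KO and 10.99, 11.80 and 12.25 in control, a change of 0.52 ± 0.30. The spread was in the controls, control replicate 3 was at the KO level, and the change was 0.18 without control replicate 1 and 0.80 without control replicate 3.

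The cohesion cycle genes held some of the larger changes and, of the 10 pairs compared, the largest difference between paralogs. Of the 7 genes that establish, protect and end cohesion, 5 were lower at an unadjusted p under 0.05 (5.8% of all probe sets). Each of the 5 had all KO arrays below all controls (9.15% of all probe sets), and the median change over the 7 was -1.06. The 5 became 3 without KO replicate 2. Esco2, the acetyltransferase that locks cohesin during S phase, read 8.89, 8.47 and 8.69 in KO and 10.61, 9.99 and 9.13 in control, a change of -1.23 ± 0.35 (2.34-fold, limma adjusted p = 0.32). Esco1, which acetylates cohesin throughout interphase, read 10.08, 10.52 and 10.17 in KO and 9.42, 9.62 and 10.18 in control, a change of 0.52 ± 0.22 with overlapping groups. The difference of the 2 changes, -1.74, was the largest of the 10 pairs compared, with no overlap of the within-array differences (exact two-sided permutation test, p = 0.1, the smallest possible). Esco2 minus Esco1 was -1.19, -2.05 and -1.48 in KO and 1.19, 0.37 and -1.05 in control. Control replicate 3 was thus close to KO replicate 1. Cdca5, or sororin, which shields acetylated cohesin from Wapl, read 9.31, 8.80 and 9.18 in KO and 10.59, 10.36 and 9.53 in control, a change of -1.06 ± 0.29 (2.09-fold, adjusted p = 0.3).

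Sgo1, the shugoshin that protects centromeric cohesin in mitosis, read 10.10, 9.43 and 9.47 in KO and 11.61, 10.78 and 10.34 in control, a change of -1.24 ± 0.34 (2.37-fold, limma adjusted p = 0.304). Its paralog Sgo2a, best known from meiosis, read 8.61, 7.91 and 8.53 in KO and 10.04, 9.65 and 8.71 in control, a change of -1.12 ± 0.36 (adjusted p = 0.357). Both shugoshins were lower, and the 2 changes differed by -0.13 with overlap between groups (exact p = 0.5). Sgo2a lost its unadjusted p under 0.05 without KO replicate 2, control replicate 1 or control replicate 2. Espl1, or separase, read 8.03, 7.55 and 7.94 in KO and 9.17, 8.52 and 8.24 in control, a change of -0.80 ± 0.26 (adjusted p = 0.356), with p over 0.05 without KO replicate 2. Pttg1, or securin, which inhibits separase until anaphase, read 9.54, 9.97 and 9.58 in KO and 9.04, 8.98 and 9.92 in control, a change of 0.38 ± 0.27. Its groups overlapped, and with 1 control left out the change ran from 0.22 to 0.69. Against control replicate 3 alone the KO mean was lower for both genes, by a difference of -0.40 for Espl1 and -0.22 for Pttg1.

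SMC5/6 subunits showed no common direction. Their median change was -0.02, and its sign turned when 1 of KO replicates 1 or 3 or control replicate 3 was left out. Nsmce2, the SUMO ligase of the complex, read 10.90, 11.06 and 10.90 in KO and 11.66, 11.23 and 11.70 in control, a change of -0.58 ± 0.15 (limma adjusted p = 0.297). Here control replicate 3 was the highest array, unlike in the condensin genes. Nsmce1, which carries a RING domain, was the 1 gene of the list with all KO arrays above all controls. It read 12.68, 12.71 and 12.51 in KO and 12.01, 11.38 and 12.38 in control, a change of 0.71 ± 0.25 (adjusted p = 0.386), or 0.44 without control replicate 2, and its unadjusted p was over 0.05 without KO replicate 1 or 2. Smc5 and Smc6, the ATPases, had changes of 0.13 ± 0.16 and -0.17 ± 0.10, with all KO arrays below all controls for Smc6 (13.04 to 13.13 against 13.18 to 13.32).

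The 3 complexes were also set side by side within each array. The median deviation of the 8 condensin genes from their means over the arrays was -0.23, -0.58 and -0.37 in KO and 0.97, 0.30 and -0.05 in control. For the 10 cohesin genes it was -0.20, -0.04 and -0.07 in KO and 0.22, 0.06 and 0.07 in control, and for the 4 SMC5/6 genes -0.08, 0.13 and -0.09 in KO and -0.03, -0.08 and 0.13 in control. KO and control did not overlap for condensin or cohesin and overlapped for SMC5/6. Against control replicate 3 alone, the median of KO mean minus control was -0.33 for condensin and -0.10 for cohesin, and against the mean of control replicates 1 and 2 it was -1.0 and -0.25. Condensin minus cohesin was -0.03, -0.54 and -0.30 in KO and 0.74, 0.24 and -0.12 in control, so that control replicate 3 fell among the KO arrays on this measure.

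**Figure D3:**
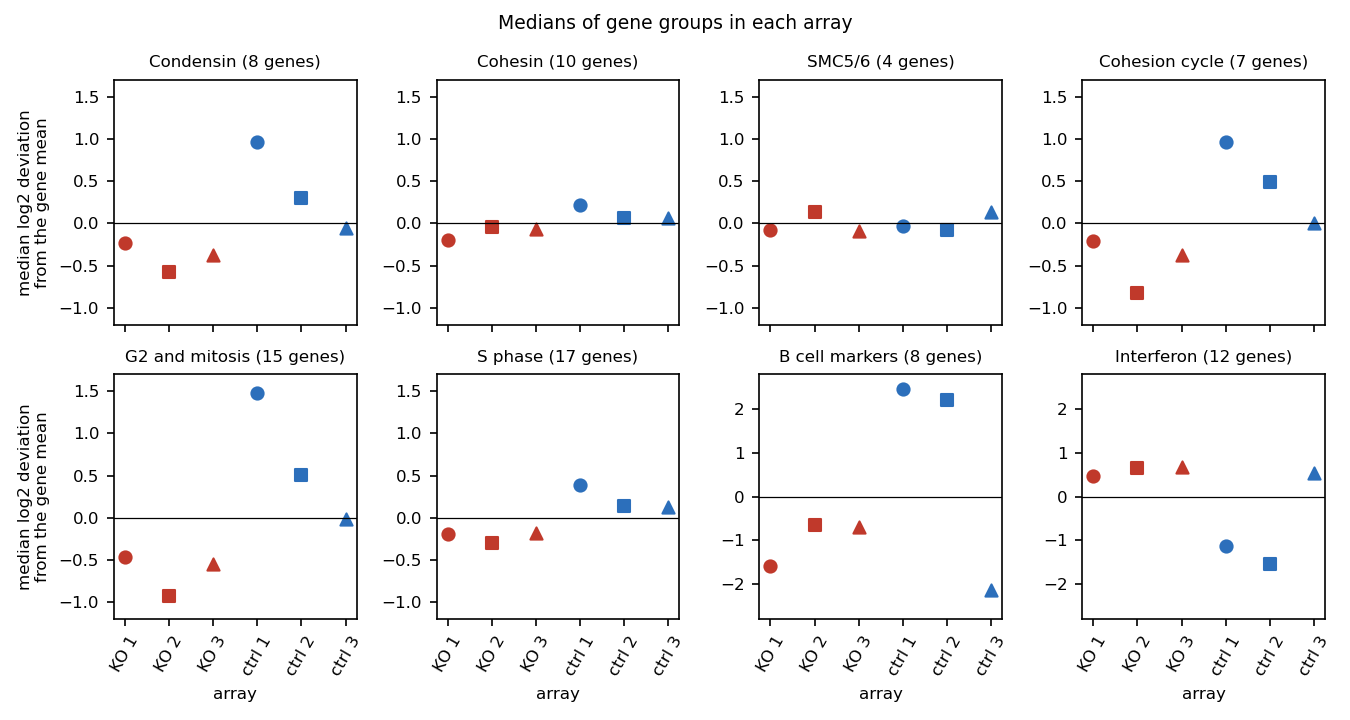
Median log2 deviation of a group's genes from their means over the 6 arrays (y axis) in each array (x axis, KO red, control blue), for the 3 SMC complexes, the cohesion cycle genes, and lists of G2 and mitosis, S phase, B cell and interferon genes. Control replicate 3 sits below the other controls for condensin (-0.05) and for G2 and mitosis, but above all KO arrays there, whereas its B cell value of -2.13 is the lowest of all arrays and its interferon value of 0.55 is among the KO arrays.

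Among the topoisomerases the split followed the paralogs. Top2a, the isoform of dividing cells, read 14.06, 13.50 and 14.01 in KO and 15.86, 15.25 and 14.32 in control, a change of -1.29 ± 0.38 (2.44-fold, limma adjusted p = 0.328). Top2b, which is also present in cells that do not divide, read 13.42, 13.65 and 13.57 in KO and 13.58, 13.61 and 13.63 in control, a change of -0.06 ± 0.11. The difference of the changes was -1.23, with no overlap of the within-array differences (exact two-sided permutation test, p = 0.1). Top2a minus Top2b was 0.64, -0.15 and 0.44 in KO and 2.28, 1.64 and 0.69 in control. Control replicate 3 was thus just above KO replicate 1. Both printed promoters held CCAAT boxes, and the CHR elements were in that of Top2a.

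The chromosome periphery pair had the most negative changes of the list. Mki67, the Ki-67 antigen that coats mitotic chromosomes and marks cycling cells, read 13.71, 13.41 and 13.73 in KO and 15.90, 15.31 and 14.23 in control, a change of -1.53 ± 0.39 (2.89-fold, limma adjusted p = 0.285). Cdca2, or Repo-Man, the phosphatase partner that reaches chromosomes at anaphase, read 8.98, 8.46 and 8.94 in KO and 10.85, 10.28 and 9.50 in control, a change of -1.42 ± 0.34 (2.67-fold, adjusted p = 0.267). Both had all KO arrays below all controls, with control replicate 3 nearest to the KO arrays.

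Hmgb2, a DNA-bending HMG box protein abundant in dividing cells, read 14.77, 14.59 and 14.75 in KO and 15.80, 15.39 and 15.05 in control, a change of -0.71 ± 0.20 (1.64-fold, limma adjusted p = 0.304). Another probe set, which names Hmgb2 together with Gm10075, had a change of -0.36 ± 0.27 with overlapping groups. Hmgb3 had a change of 0.02 ± 0.15, and the change of Hmgb2 minus that of Hmgb3 was -0.73 (exact p = 0.1). Within arrays, Hmgb2 minus Hmgb3 was 3.34, 3.32 and 3.17 in KO and 4.61, 3.97 and 3.44 in control, with control replicate 3 near the KO arrays. The probe set shared by Hmgb1 and Gm21596 read 11.87, 11.88 and 11.87 in KO and 12.79, 12.35 and 12.41 in control, a change of -0.64 ± 0.14 (adjusted p = 0.258) that cannot be assigned to either gene.

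Ctcf, which stops loop extrusion by cohesin at its binding sites, read 12.39, 12.26 and 12.35 in KO and 13.45, 12.71 and 12.32 in control, a change of -0.49 ± 0.27. Its groups overlapped, and without control replicate 1 the change was -0.18. Smchd1, a noncanonical SMC protein of X inactivation, read 12.29 to 12.36 in KO and 12.26 to 12.36 in control, a change of 0.01 ± 0.10. It was 1 of the least variable genes of the list.

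**Figure D4:**
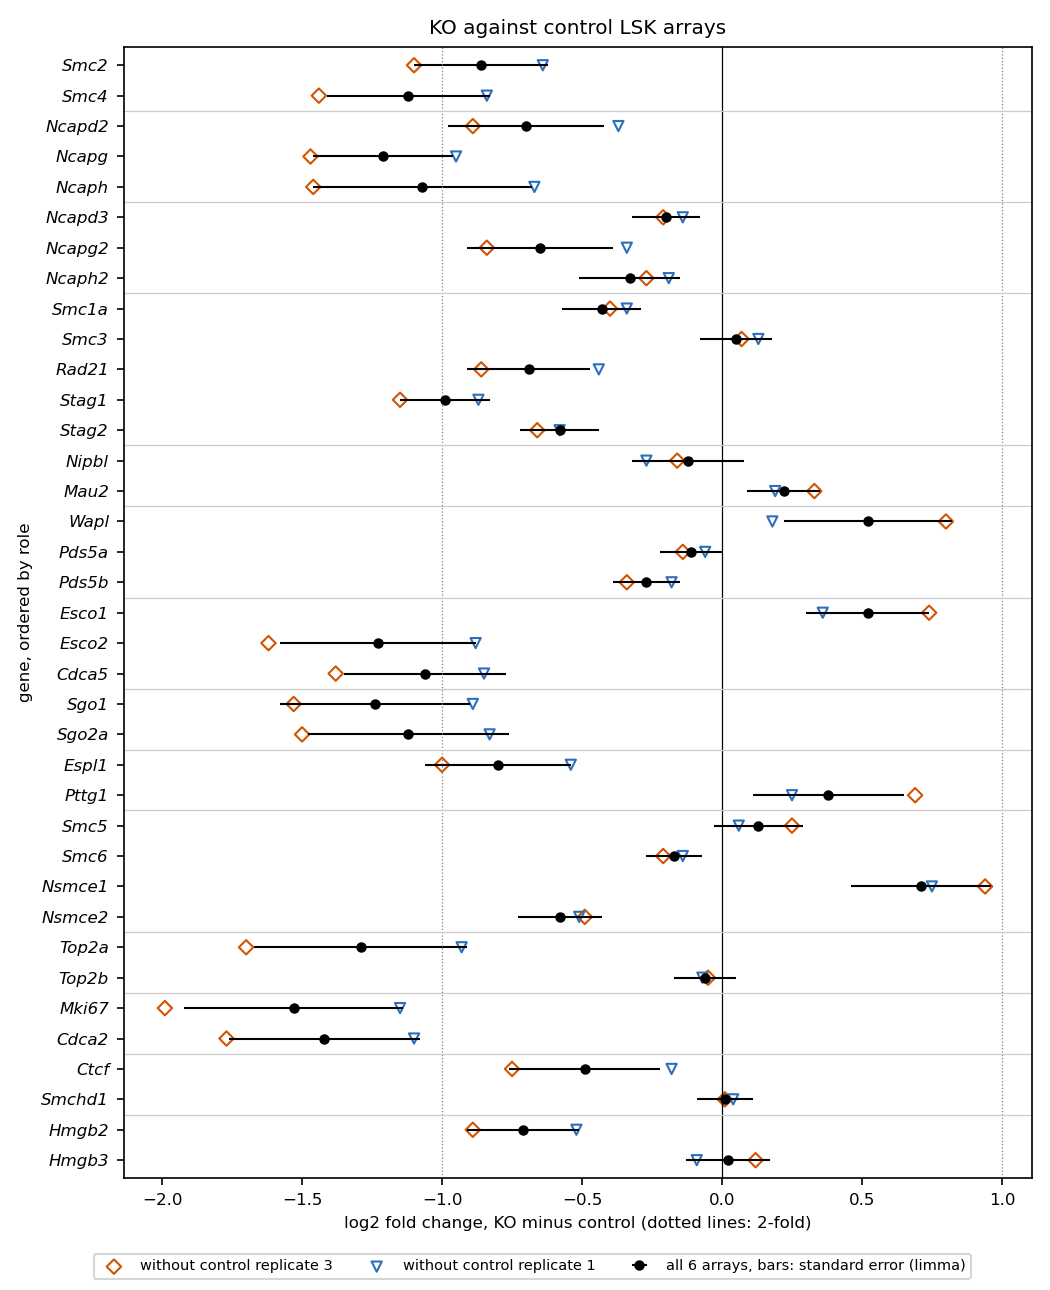
Log2 fold change, KO minus control, of each gene with its limma standard error (black, all 6 arrays), and the same without control replicate 3 (orange diamonds) or without control replicate 1 (blue triangles) on the x axis, genes by role on the y axis. Leaving out control replicate 3 moves most of the lower genes further from 0, to -1.99 for Mki67, leaving out control replicate 1 moves them nearer to 0, and Smc3, Top2b, Smchd1 and Hmgb3 stay near 0 in all 3 estimates.

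Related genes outside the list were examined in 8 groups, with 44 of 47 genes measured. Their median change was -0.09, 11 were lower at an unadjusted p under 0.05 (5.8% of all probe sets) and 1 was higher (5.09%). The chromosomal passenger complex, which corrects kinetochore attachments and helps to load condensin I, was lower in all 4 members, with a median of -1.10. Aurkb, its kinase, read 9.08, 8.57 and 8.92 in KO and 11.08, 10.30 and 9.59 in control, a change of -1.47 ± 0.36 (limma adjusted p = 0.275), Incenp had -1.27, Birc5 -0.93 and Cdca8 -0.71. All 4 had every KO array below every control (9.15% of all probe sets). Haspin, the histone H3 kinase that recruits this complex to centromeres, read 9.40, 8.94 and 9.50 in KO and 11.17, 11.05 and 10.19 in control, a change of -1.52 ± 0.29 (adjusted p = 0.216). Aurkb and Haspin were the 2 of these 44 genes lower by over 2-fold at p under 0.01 (0.393% of all probe sets).

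Of the 10 other cohesin regulators, Dscc1, a subunit of the clamp loader used in cohesion, had a change of -0.46 ± 0.11, and Haspin and Dscc1 were the 2 with an unadjusted p under 0.05. Among 5 condensin partners, Kif4, the chromokinesin that shapes chromosomes with condensin I, had -1.22 ± 0.40 and Mcph1, an inhibitor of condensin II, had -0.40 ± 0.15. Of 6 other topoisomerase and adduct repair genes, 1 had an unadjusted p under 0.05, Top1 at -0.44 ± 0.14, and among 6 other architectural factors Maz had -0.65 ± 0.18 and Ldb1, which bridges enhancers and promoters, had -0.48 ± 0.11. None of 5 other SMC5/6 genes and none of 4 other HMG genes had an unadjusted p under 0.05. Smc1b, a meiotic cohesin subunit, had a change of 0.63 ± 0.23 at low signals of 5.18 to 6.39 and was the 1 higher gene.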

How the data were processed

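The authors isolated total RNA from sorted LSK cells, amplified 40 ng with the NuGen Ovation Pico WTA System and hybridized it to Affymetrix MTA-1.0 arrays. The deposited values are log2 signals after Signal Space Transformation and robust multi-array averaging (SST-RMA), as the methods and the submitters' processing notes (Affymetrix Expression Console, Transcriptome Analysis Console) give it. Array signals can saturate or meet background, so folds may be understated, and the number of arrays, 3 a group, limits the precision. The labels call the arrays biological replicates.

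Probe sets were named from the platform annotation, updated through RefSeq (343 names). Of 65956 probe sets, 31292 named 1 gene, 1522 several and 33142 none. KO and control were compared with limma 3.58.1 (R 4.3.3; lmFit and eBayes, no filter, no block), adjusted by Benjamini-Hochberg over all probe sets. The study's text counts genes at a fold over 2 and a p under 0.01, without saying whether it was adjusted, and its methods name limma with a corrected p under 0.05. Here the first was applied to the unadjusted p, and both were counted. The script was tested on simulated data. Paralog pairs were compared by exact two-sided permutation of the within-array differences. Every measured gene of the list was named, and of each related list up to 4 genes with the smallest unadjusted p under 0.05. The members and lists were chosen with earlier results of these data known. Promoters came from RefSeq (GRCm38.p6), and no protein sequences were used here.

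Replicate numbers showed no pairing of the arrays: deviations of same-numbered arrays correlated at 0.16, -0.17 and -0.17. KO replicate 2 and control replicate 3, which share no number, correlated at 0.28, so such values cannot settle whether arrays were paired. The sample descriptions hold another number, which 2 pairs of a KO and a control array share, with a correlation of 0.16 in both. What it stands for was not given, and it was used as an alternative block. KO replicate 2 and control replicate 3 share their number with no other array. In that fit they added nothing to the estimated changes, which rested on the 2 pairs. Alternatives were other normalizations, filters, variance models, blocks and leaving out each array.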

Additional observations from a re-analysis of the deposited data

How the results depend on the processing

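The count of genes lower more than 2-fold with p under 0.01 before adjustment (6) was 11 with array weights, 12 with the number in the sample descriptions as a block and 0 with an unpaired t-test, the study's general default but not its array test, which gave 13 genes lower (3 of condensin and 2 of the establishment, protection and cleavage genes) and 0 higher at p under 0.05. With the description number as a block, KO replicate 2 and control replicate 3 did not enter the estimates. The replicate block by title number gave 5, and its calls at p under 0.05 (20 lower) kept their number. The count higher at p under 0.05 was 2 with quantile normalization, 3 with array weights and 3 with the description number as a block, where the cohesin median was -0.30. Leaving out 1 array in turn gave 1 to 13 genes past 2-fold, 15 to 22 lower and 0 to 5 higher at p under 0.05, 0 to 11 lower at an adjusted p under 0.05 and 21 to 24 with all KO arrays below all controls, with medians of -1.0 to -0.51 for condensin, -0.25 to -0.14 for cohesin and -0.09 to 0.02 for SMC5/6. The SMC5/6 median turned to 0.01 without KO replicate 1 and to 0.02 without KO replicate 3 or control replicate 3. Changes near 0 turned sign: Smc3 to -0.02 with quantile normalization, and with 1 array left out it ran from -0.06 (without control replicate 2) to 0.13. Smchd1 turned to -0.01 with the description number as a block and ran from -0.01 (without KO replicate 2 or control replicate 2) to 0.04. Hmgb3 ran from -0.09 (without control replicate 1; -0.06 without KO replicate 3) to 0.12, and Nipbl from -0.27 to 0.06 (without control replicate 2). Over 16 settings, 573 values for single genes kept their direction and side of the adjusted threshold, 11 passed it and 8 turned sign. The cause of these shifts was not tested. For counts at an unadjusted p and counts of genes without overlap, the share of all probe sets was not computed in these settings. Probe sets naming several genes cannot separate near-identical genes.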

Other observations

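Lists of other cell types and states had these values. Of 17 measured S phase and replication genes, 9 were lower in KO at an unadjusted p under 0.05 (limma, 5.8% of all probe sets) and 0 were higher (5.09%). Their median change was -0.49, and the median deviation was -0.19, -0.30 and -0.18 in KO and 0.39, 0.14 and 0.13 in control. The median change was -1.69 over 8 B cell markers, with overlapping groups for all 8, 0.53 over 12 neutrophil, 0.98 over 9 T and NK cell, -0.14 over 9 erythroid, 0.06 over 9 monocyte and macrophage, 0.42 over 6 megakaryocyte and 0.02 over 9 LSK and stem cell genes. Changes of the LSK and stem cell genes ran from -1.22 to 0.84. Those of the neutrophil genes ran from -2.15 (Ngp) to 4.07 (S100a8), with 6 below 0 and 6 above. The erythroid genes ran from -3.66 (Car1) to 0.72 (Car2), with 6 below 0 and 3 above. The interferon response list had a median of 1.12, with 8 of 12 genes higher at p under 0.05 (5.09% of all probe sets). In control replicate 3, 8 of the 9 LSK and stem cell genes had their highest control value, and 8 of the 8 B cell markers their lowest. Of all 30738 genes, 13150 had their highest control value there and 9018 their lowest.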
